A study of Mus musculus with 12 samples.

Results

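The genes described here encode the proteins of the cytosolic ribosome, measured by RNA-seq in mouse leukemia cells that had grown in 3 kinds of host. They were taken by name: symbols starting with Rpl or Rps followed by a digit or a p, plus Rpsa, without hyphenated symbols and without the Rps6k kinases. In all, 93 symbols met this rule, and 89 of them averaged 1 TPM or more across the 12 libraries, among 15026 genes at that level and 55401 genes in the table. TPM is a transcript level per length, scaled so that all genes of a library add up to the same total. The 4 symbols below that level were Rps4l, Rps12l1, Rpl10l and Rpl39l.

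The leukemia was a single line, made by transducing mouse bone marrow progenitors with MLL-AF9, a fusion oncogene, together with GFP, and passed through many rounds of transplantation, lately into recipients that were not irradiated. The hosts were WT mice (C57BL/6, with a normal immune system), Rag2-/- mice (the C57BL/6J-Rag2em3Lutzy/J strain, which lacks mature T and B cells but has NK cells) and NSG mice (which lack T, B and NK cells and have a NOD background), so that NSG differs from the other 2 hosts in strain as well as in immune cells. The study's figure legend for this RNA-seq gives female mice, and its methods give an age of 8 to 12 weeks. GFP+ cells were collected from moribund mice, and 4 libraries were labelled as biological replicates in each host. The comparisons below ask whether the ribosomal protein mRNAs of the same leukemia differed with the host.

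The cytosolic ribosome has a small subunit, which reads the mRNA, and a large subunit, which forms the peptide bond, and each protein is needed in about the same number of copies. In mammals the mRNAs for these proteins are among the most abundant in a growing cell, and most carry a pyrimidine tract at their 5′ end (the TOP motif) through which mTOR signalling controls their translation. Loss of 1 copy of several of these genes causes Diamond-Blackfan anaemia, a failure of red cell production, and loss of RPS14 is part of the 5q- syndrome, so the family is well known in bone marrow disease. The genome also holds many processed copies of these genes, so that short reads from a member can often be placed at more than 1 locus.

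The rule used names only, and the start sites of the members were therefore examined for the pyrimidine tract. RefSeq (GRCm38.p6) start sites were found for 66 of the 89 members. An unbroken run of at least 8 bases made of C or T, on the gene's own strand and within a window from 20 bases before to 50 bases after the start, was found for 50 of these 66 genes (75.8%), compared with 28.5% of all 27025 genes in the same table. The following 30-base stretches around the start are shown because they come from members whose levels are described below, and the capitals mark the longest run of C or T in the window.
Rps6, chr4:86857345-86857374, minus strand: gtcgggCCTCTTTTTCgtgacgcctcccag
Rpl28, chr7:4792956-4792985, plus strand: ctcgtgTCTCTCTTTCCgtctccggccgcc
Rps26, chr10:128626480-128626509, minus strand: gccggaTCCTCTTTCgagtcttggctccaa
Rpl22l1, chr3:28805503-28805532, plus strand: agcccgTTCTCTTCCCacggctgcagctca
Rps27, chr3:90213627-90213656, minus strand: ctttcgCTCCTTTCCggcggtgacgacctc
Rps16, chr7:28350672-28350701, plus strand: agcccgCTTCTgtcgtgacgtagcactcaa
The longest run was 11 bases in Rpl28, 10 in Rps6 and Rpl22l1, and 9 in Rps26 and Rps27. It was 5 bases in Rps16, below the limit of 8, in the window around the start that RefSeq lists. Such runs were present in members that were low and in members that were high in the same libraries, for example Rpl28 and Rps26.

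The near-copies among the members are a second matter of sequence. Rps27, a zinc finger protein of the small subunit, lies on chromosome 3 (90212522 to 90213651, GRCm38), and Rps27rt, a single-exon copy of it, lies on chromosome 9 (114982366 to 114982739). Rps27l, a separate paralog known as a target of p53, lies on chromosome 9 as well (66946086 to 66949516). All 3 have a coding sequence of 255 bases in GENCODE M21. The first 90 coding bases are shown to make the likeness visible, with capitals for bases that differ from Rps27.
Rps27: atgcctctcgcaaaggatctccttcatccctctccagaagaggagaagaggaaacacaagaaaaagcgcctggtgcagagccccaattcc
Rps27rt: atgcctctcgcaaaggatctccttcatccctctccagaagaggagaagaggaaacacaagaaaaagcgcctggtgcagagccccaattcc
Rps27l: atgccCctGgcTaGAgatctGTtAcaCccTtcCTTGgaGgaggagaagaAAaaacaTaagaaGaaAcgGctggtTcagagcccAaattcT
Rps27 and Rps27rt did not differ at any of the 255 coding bases, whereas Rps27l differed from Rps27 at 61 of them (76.1% identity). Reads from the coding sequence of Rps27 and Rps27rt cannot be assigned to either gene, and their separate values below are uncertain for that reason.

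The levels of the members spanned 3 orders of magnitude. The lowest mean was 4.81 TPM (Rpl32l) and the highest 5905 TPM (Rplp1), with a median of 1098 TPM, and 48 members averaged 1000 TPM or more. The 6 highest were Rplp1 and Rplp0, which belong to the P stalk that recruits translation GTPases, then Rps3a1 (4980 TPM), Rpl4 (3716 TPM), Rps6 (3687 TPM), a substrate of the S6 kinases, and Rps15 (3611 TPM). The members took 10.9% to 13.0% of all TPM in a library, and 43 of the 100 genes with the highest mean were members. By role, 31 were small subunit proteins (median of the means 1363 TPM), 43 were large subunit proteins (1167 TPM), 3 were P stalk proteins, 11 were near-copies or paralogs (61.5 TPM) and 1, Rps19bp1 (56.5 TPM), is not a structural protein of the ribosome but a nucleolar binding partner of Rps19. The annotation lists 84 of the 89 as protein-coding and 5 (Rpl32l, Rpl37rt, Rpl6l, Rps3a2 and Rps3a3) as processed pseudogenes.

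The 6 lowest members were Rpl32l, Rpl3l (6.30 TPM), a paralog known from muscle, Rpl24 (8.72 TPM), Rps10 (8.99 TPM), Rpl36al (11.0 TPM) and Rps3a2 (13.3 TPM). Rpl24 and Rps10 are structural proteins of the ribosome, but their mRNAs were listed far below the median of their subunits. In the annotation, 47.0% of the exonic bases of Rpl24 are shared with the overlapping gene Gm28037 and 28.7% of those of Rps10 with RPS10-NUDT3 and Gm15420. Gm28037 and RPS10-NUDT3 were listed at 0 in every library. In all, 12 members shared more than 20% of their exonic bases with another gene. Across transcripts, a median of 43.9% of a member's 50-base stretches also occurred in transcripts of other genes, and this share was at least 50% in 37 members, whereas Rps19bp1 and Rpl3l shared none. The levels of single members, and their order, are uncertain to that extent, since the handling of such reads is not given in the sources used here.

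Between replicates of a host, members averaging 100 TPM or more varied slightly more than other tested genes at that level. The median within-host SD of log2(TPM + 1) was 0.112 for the 79 members that averaged 100 TPM or more and 0.103 for the 1893 other tested genes at that level. The 4 least variable members over the 12 libraries were Rplp0 (SD 0.029), Rpl6 (0.031), Rps25 (0.037) and Rps3a1 (0.043). Rplp0 ranged from 4983 to 5294 TPM. The 4 most variable were Rpl32l (SD 0.70), a gene near the lower limit at 1.08 to 8.45 TPM, Rpl22l1 (0.56), Rps27rt (0.51) and Rpl23a (0.51).

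The libraries themselves were examined before the hosts. Depth, recovered from the steps between low values, was estimated at 16000000 to 42800000 mapped reads. The leukemia markers (Ptprc, Itgam, Kit, Hoxa9, Meis1, Mpo, Cd33 and Csf1r) were present in every library, with means of 57.6 to 650 TPM. Of these 8, Cd33 and Mpo were called for Rag2-/- against WT, 1 higher and 1 lower. The 8 neutrophil markers, S100a8 and Ltf among them, summed to 407 to 1730 TPM in Rag2-/-, 69.0 to 112 TPM in WT and 96.6 to 143 TPM in NSG, and all 8 averaged 1 TPM or more. Erythroid markers summed to 3.05 to 12.9 TPM (2 of 8 at that level), T and NK cell markers to 2.40 to 8.04 TPM (1 of 7), B and plasma cell markers to 2.42 to 28.0 TPM (3 of 6) and macrophage markers to 55.5 to 114 TPM (6 of 6). The genes of the mitochondrial chromosome were listed at 0 in every library. An earlier description of these data noted that Rag2-/- replicates 3 and 4 and NSG replicates 1 and 2 stood apart across all genes. In those libraries the 25% of tested genes with the lowest transcript GC content had a median shift of 0.04 to 0.13 from their gene means (log2), against -0.09 to 0.01 in the other 8 libraries.

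The mean summed level of the family was lowest in Rag2-/-. The sums were 120455, 124874, 118373 and 114186 TPM in WT, 114489, 112907, 109368 and 111654 TPM in Rag2-/-, and 113590, 122848, 130258 and 122005 TPM in NSG. All Rag2-/- sums but that of replicate 1 were below every WT and NSG sum, and replicate 1 was above WT replicate 4 and NSG replicate 1, so the groups overlapped. The mean of Rag2-/- differed by -6.17% from that of WT and by -8.24% from that of NSG, and the mean of NSG was 2.26% higher than that of WT. The last difference, 2703 TPM, rested on single libraries: it was 9 TPM without NSG replicate 3, 941 TPM without WT replicate 4, 4504 TPM without WT replicate 2 and 5565 TPM without NSG replicate 1. The SD was 4446 TPM in WT, 2162 TPM in Rag2-/- and 6820 TPM in NSG (n = 4 each). A sum in bulk RNA cannot tell fewer cells of a type from less RNA per cell. No test was made of the sum, since its members were chosen with results of these data known.

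**Figure D1:**
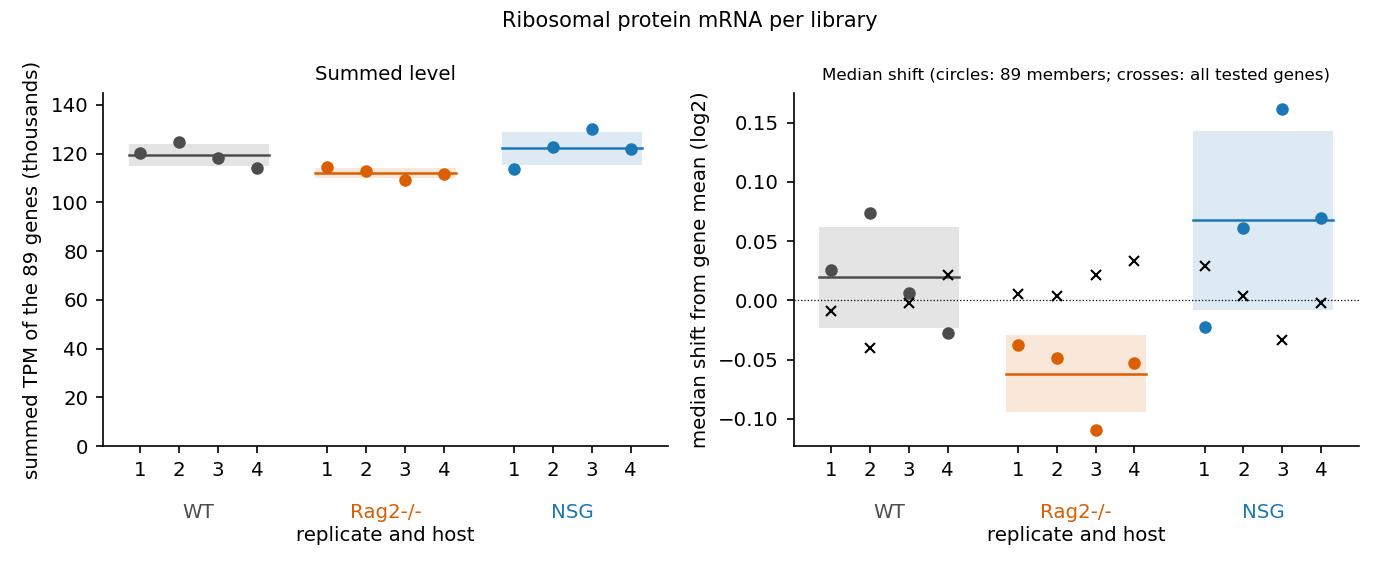
Left, the summed TPM of the 89 members (axis in units of 1000 TPM) for each of the 12 libraries, by host and replicate. Right, the median over members (circles) and over all 15026 tested genes (crosses) of log2(TPM + 1) minus the gene's mean over the 12 libraries. Lines are host means and bands are ± 1 SD (n = 4). The 4 Rag2-/- libraries lie below 0 for the members and slightly above 0 for all tested genes.

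The same was seen when each member counted equally. The median shift of the members from their own means over the 12 libraries was 0.03, 0.07, 0.01 and -0.03 in WT, -0.04, -0.05, -0.11 and -0.05 in Rag2-/-, and -0.02, 0.06, 0.16 and 0.07 in NSG (log2). Every Rag2-/- library was below every WT and NSG library. The numbers of members above their own mean were 47, 64, 47 and 29 in WT, 26, 27, 18 and 28 in Rag2-/-, and 39, 53, 68 and 55 in NSG. Over all tested genes the median shift lay between -0.04 and 0.03. Other tested genes with less than 1 kb of exons had median shifts that averaged 0.0005 in WT, 0.002 in Rag2-/- and 0.06 in NSG. Like the members, these short genes were highest in NSG replicate 3, at 0.12. The part of transcript length in the member shift was not tested. The neutrophil marker sum, which is also high in Rag2-/-, was 1730, 1374, 1427 and 407 TPM in replicates 1 to 4 of that host. The member shifts of these libraries were -0.04, -0.05, -0.11 and -0.05. The part of the neutrophil markers in the member shift was not tested.

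In the comparison of Rag2-/- with WT, no member was called at an adjusted p below 0.05 and a log2 fold change beyond 0.5 (limma on log2(TPM + 1), Benjamini-Hochberg over all tested genes). Of all tested genes, 1.47% were called. The median log2 fold change of the members was -0.09, against 0.02 for all tested genes, and 62 members were below 0 and 27 above, where 45.5% and 54.5% of all genes were. At an unadjusted p below 0.05, 22 members were lower, where 8.66% of all genes were, and 2 were higher, where 12.3% of all genes were. The 4 Rag2-/- libraries lay wholly below the 4 WT libraries for 23 members, where 6.72% of all genes did, and wholly above for 6 members, where 10.2% did. A limma fit with voom on the recovered reads also called 0 members, with 30 lower and 2 higher at an unadjusted p below 0.05 (10.2% and 10.7% of all genes). Without the 4 libraries that stood apart, 20 members were lower and 2 higher at that level (7.23% and 8.22% of all genes). Only replicates 1 and 2 of Rag2-/- were left in that comparison. With the 4 libraries that stood apart as a factor in the fit of all 12, 5 members were lower and 0 higher (7.37% and 9.3% of all genes).

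The lowest adjusted p of a member belonged to Rps3, a small subunit protein at the mRNA entry. Rps3 had 1013, 1009, 947 and 920 TPM in WT and 848, 853, 821 and 813 TPM in Rag2-/-, so that all Rag2-/- libraries were below all WT libraries. Its log2 fold change was -0.22 (SE 0.069, limma adjusted p = 0.0991). The member with the most negative fold change was Rpl22l1, a paralog of Rpl22 that can take its place in the ribosome. Rpl22l1 had 92.5, 87.3, 70.2 and 60.6 TPM in WT and 58.4, 45.9, 37.8 and 33.6 TPM in Rag2-/-, again without overlap. Its log2 fold change was -0.82 (SE 0.30, limma adjusted p = 0.142). In a fit of the 8 WT and Rag2-/- libraries alone, with the same fold changes but a spread estimated without NSG, Rpl22l1 (adjusted p = 0.0334) and Rps27rt (adjusted p = 0.028) did pass.

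Rpl23a, a large subunit protein near the exit of the nascent peptide, had 1168, 1252, 1156 and 1051 TPM in WT and 1063, 917, 564 and 599 TPM in Rag2-/-. Replicate 1 of Rag2-/- was above replicate 4 of WT, and replicates 3 and 4 were far below. Its log2 fold change was -0.61 (SE 0.29, limma adjusted p = 0.253), and -0.23 (SE 0.082, adjusted p = 0.239) without the 4 libraries that stood apart. Rps16, of the small subunit, had 1930, 2031, 1695 and 1504 TPM in WT and 1449, 1310.5, 1141 and 1241 TPM in Rag2-/-, with a log2 fold change of -0.47 (SE 0.18, limma adjusted p = 0.171). Both genes were lowest in the same 2 Rag2-/- libraries.

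On the other side, Rps27rt had 210, 216, 220 and 269 TPM in WT and 302, 311, 430 and 448 TPM in Rag2-/-, with no overlap. Its log2 fold change was 0.69 (SE 0.27, limma adjusted p = 0.169), and 0.43 (SE 0.096, adjusted p = 0.0955) without the 4 libraries that stood apart. Rps27, with the identical coding sequence, had a log2 fold change of 0.11 (SE 0.086, limma adjusted p = 0.49). Rpl6l, a processed pseudogene of Rpl6 on chromosome 10, and Rps26 had log2 fold changes of 0.25 and 0.23 (adjusted p = 0.377 and 0.394), and of 0.15 each without those libraries. Rps26 ranged from 1932 to 2145 TPM in WT and from 2145.1 to 2581 TPM in Rag2-/-.

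In the comparison of Rag2-/- with NSG, again no member was called, where 0.213% of all tested genes were (limma). The median log2 fold change of the members was -0.12, against 0.01 for all tested genes, and 74 members were below 0 and 15 above, where 46.6% and 53.4% of all genes were. At an unadjusted p below 0.05, 24 members were lower and none was higher, where 4.84% and 7.72% of all genes were. Of the 24, 18 were among the 43 large subunit proteins and 5 among the 31 small subunit proteins. In the counts at that level, the lean was not seen for Rag2-/- against WT, where 10 large subunit and 10 small subunit proteins were lower. By mean summed TPM, Rag2-/- differed from WT by -7.52% for the large subunit and stalk proteins and by -4.96% for the small subunit proteins. From NSG it differed by -9.44% and -6.62%. The Rag2-/- libraries lay wholly below the NSG libraries for 11 members (2.25% of all genes) and wholly above for 0 (4.34%). Without the 4 libraries that stood apart the median was -0.17, with 41 members lower and 4 higher at an unadjusted p below 0.05 (6.5% and 7.11% of all genes). That comparison rests on Rag2-/- replicates 1 and 2 and NSG replicates 3 and 4, and NSG replicate 3 had the highest member sum. With the 4 libraries that stood apart as a factor, 38 were lower and 0 higher (5.8% and 8.9% of all genes). The voom fit on recovered reads called 0, with 35 lower and 0 higher at that level (7.29% and 6.43% of all genes). The 2 comparisons share the Rag2-/- libraries and are not independent of each other.

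The lowest adjusted p here was that of Rps21, a small subunit protein. Rps21 had 755, 803, 841 and 785 TPM in Rag2-/- and 907, 1068, 1081 and 1006 TPM in NSG, without overlap. Its log2 fold change was -0.35 (SE 0.071, limma adjusted p = 0.0666); with voom on recovered reads the adjusted p was 0.0352, at a fold below the limit. The most negative fold change was that of Rpl38, a large subunit protein known from the tail-short mouse. Rpl38 had 1019, 979, 887 and 871 TPM in Rag2-/- and 988, 1567, 1607 and 1353 TPM in NSG, and 1219, 1272, 1113 and 992 TPM in WT. Replicate 1 of NSG stood at the level of Rag2-/-, and the other NSG libraries were above every WT and Rag2-/- library. Its log2 fold change from NSG was -0.53 (SE 0.14, limma adjusted p = 0.13), and without NSG replicate 1 it was -0.68 (SE 0.096) and was called (adjusted p = 0.042).

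The other extremes of this comparison were smaller or less even. Rps3a2, a near-copy of Rps3a1 at 9.45 to 17.6 TPM, had a log2 fold change of -0.42 (SE 0.15, limma adjusted p = 0.248), and Rpl22l1 one of -0.41 (SE 0.30, adjusted p = 0.618). Rps27a, which encodes ubiquitin fused to a small subunit protein, had the highest, 0.24 (SE 0.28, adjusted p = 0.786). Rps27a had 447 TPM in NSG replicate 1 and 864 to 1320 TPM in the other 11 libraries, and without that library its fold change was -0.13. Rps3a3 and Rps7 followed with 0.10 and 0.09. Without the 4 libraries that stood apart, NSG replicate 1 among them, the log2 fold change was -0.76 for Rpl22l1 (SE 0.20, adjusted p = 0.177), -0.24 for Rps27a and 0.03 for Rps3a3.

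In the comparison of NSG with WT, no member was called, and 0% of all tested genes were (limma). The members' median log2 fold change was 0.03, against 0.005 for all tested genes, with 52 members above 0 and 37 below, where 51.5% and 48.5% of all genes were. At an unadjusted p below 0.05, 7 members were higher (4.93% of all genes) and 0 lower (4.23%), and the libraries did not overlap for 2 members, both higher in NSG (2.21% of all genes; 2.38% were wholly lower). The voom fit called 0 members, with 14 higher and 0 lower at an unadjusted p below 0.05 (4.92% and 3.15% of all genes). Without the 4 libraries that stood apart the median was 0.08, with 11 higher and 0 lower at that level (4.79% and 5.42% of all genes). Only replicates 3 and 4 of NSG were left in that comparison. With the 4 libraries that stood apart as a factor, 9 were higher and 0 lower (3.71% and 4.22% of all genes). The lowest adjusted p was that of Rps27l, with 499, 526, 496 and 481 TPM in WT and 642, 765, 618 and 517 TPM in NSG and a log2 fold change of 0.33 (SE 0.095, limma adjusted p = 0.378). Rps27rt (0.65), Rps3a2 (0.28), Rpl23a (-0.50), Rpl22l1 (-0.41) and Rpl24 (-0.25) had the other extreme fold changes, and each had NSG libraries on both sides of a WT library. Without the 4 libraries that stood apart, Rpl23a (0.04), Rpl22l1 (0.20) and Rpl24 (0.08) were on the other side of 0, Rps27rt was at 0.09, Rps3a2 at 0.40 and Rps27l at 0.18.

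**Figure D2:**
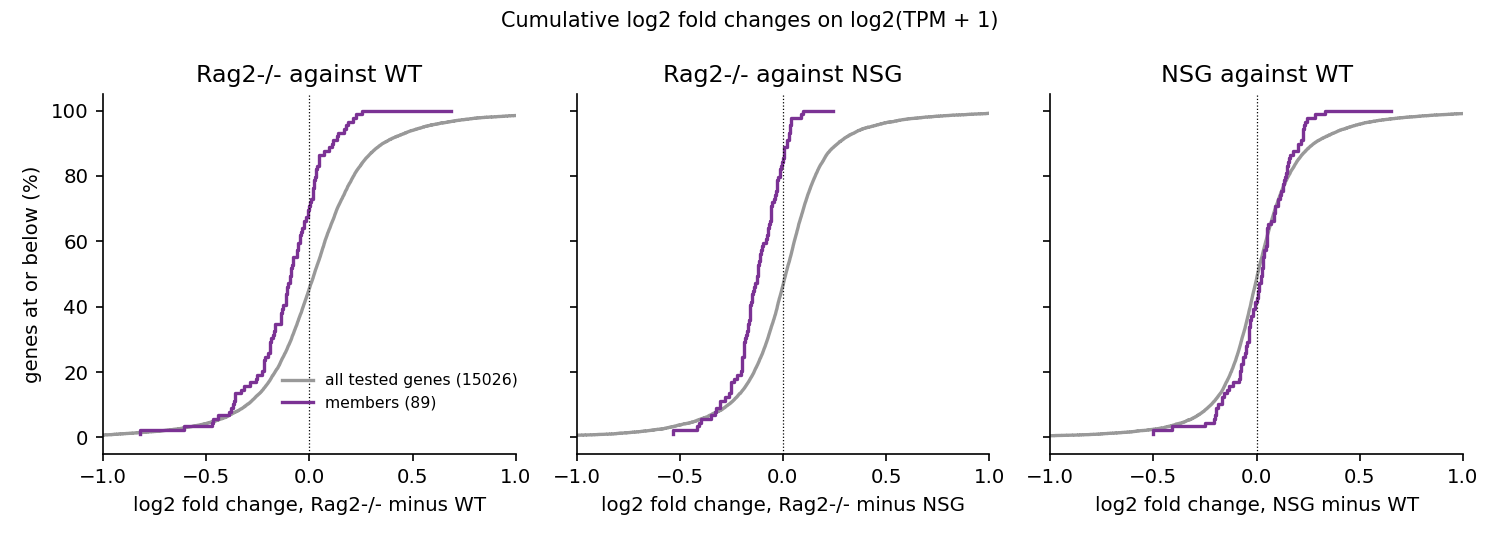
Cumulative share of genes (%) at or below a log2 fold change on log2(TPM + 1), for the 89 members and all 15026 tested genes, in the 3 comparisons of hosts (axis limited to -1 to 1). Over most of its range the line of the members lies to the left of all tested genes for Rag2-/- against WT (medians -0.09 and 0.02) and against NSG (-0.12 and 0.01), and close to it near the middle for NSG against WT (0.03 and 0.005).

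The main axis of the members' variation split the replicates of NSG. Over the 12 libraries, a first principal component of the members' log2(TPM + 1) took 55.6% of their variance. Its scores were 1.29, 1.64, 0.87 and 0.29 in WT, -0.01, -0.44, -1.89 and -1.72 in Rag2-/-, and -2.19, -1.34, 1.99 and 1.52 in NSG. NSG replicates 3 and 4 thus lay beside WT replicates 1 and 2, and NSG replicates 1 and 2 beside Rag2-/- replicates 3 and 4. Members moved in opposite directions along it. In 14 of 89 members the 4 libraries that stood apart were the 4 lowest, where this held for 1.7% of all tested genes, and in 10 members they were the 4 highest, where it held for 3.4%.

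The 14 members that were lowest in Rag2-/- replicates 3 and 4 and NSG replicates 1 and 2 came from both subunits and the stalk: Rplp1, Rpl8, Rps16, Rps9, Rpl13, Rps18, Rpl28, Rpl23a, Rps3, Rpl11, Rpl9, Rpl18, Rps20 and Rpl22l1. Rplp1, the most abundant member, had 5888 to 7462 TPM in WT, 5708, 5069, 4426 and 4432 TPM in Rag2-/-, and 4551, 4723, 7598 and 7206 TPM in NSG. Rps16 in NSG was 1173, 1246, 2190 and 1963 TPM, Rpl23a 455, 695, 1171 and 1196 TPM, and Rpl22l1 36.4, 37.8, 82.8 and 94.1 TPM. In each of these genes, NSG replicates 1 and 2 were inside or below the Rag2-/- range and replicates 3 and 4 inside or above the WT range.

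The 10 members that were highest in those libraries included Rpsa, Rps26, Rpl29, Rpl26, Rpl27, Rps12, Rps27, Rpl6l and Rps27rt, again of both subunits and including 2 near-copies. Rps26 in NSG was 2892, 3081, 1964 and 1868 TPM, and Rps27rt 461, 608, 250 and 233 TPM. The transcript GC content had a median of 52.7% in the 14 lowest members and 52.8% in the 10 highest, and the median share of 50-base stretches found elsewhere was 48.7% and 63.6%. Across the 89 members, the loading on the first component and GC content had a Pearson r of 0.087 (members are not independent points, and they share the libraries). The part of GC content, which moved with these libraries over all genes, was not tested within the family.

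**Figure D3:**
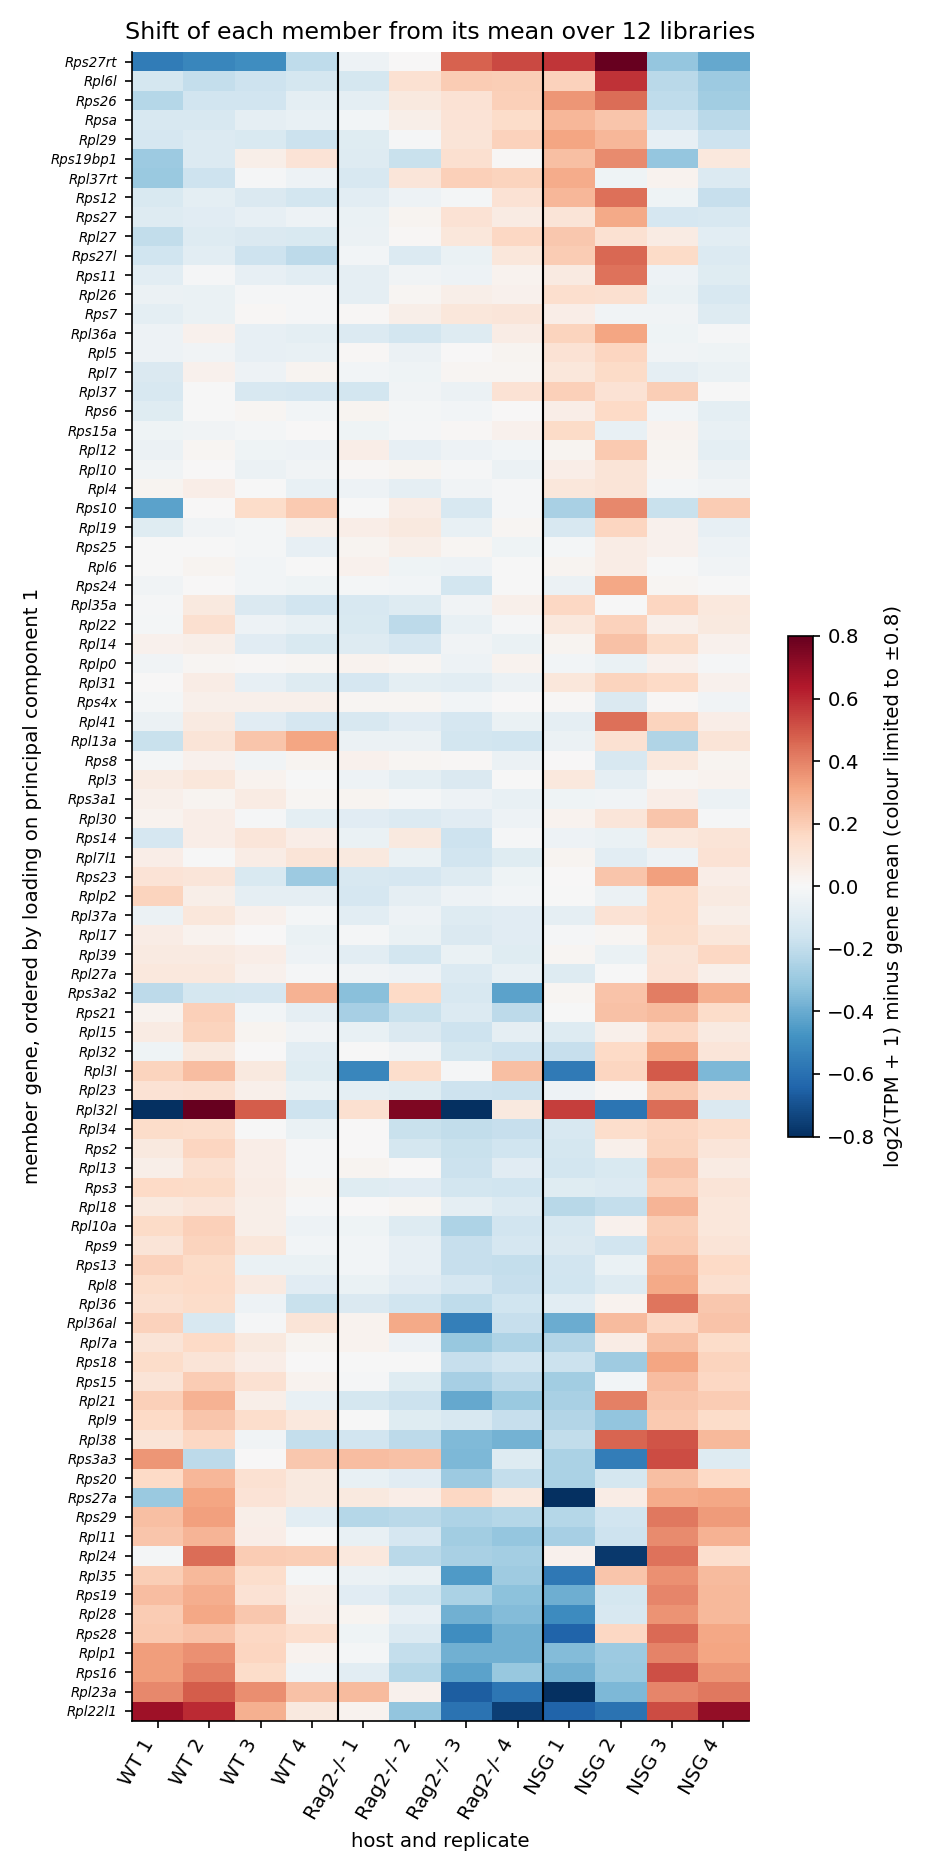
Shift of each of 86 members (rows, ordered by their loading on the first principal component) from its own mean over the 12 libraries (columns, by host and replicate), as log2(TPM + 1), with colours limited to ±0.8. Rag2-/- replicates 3 and 4 and NSG replicates 1 and 2 are high (red) in the top rows, from Rps27rt to Rps26, and low (blue) in the bottom rows, from Rplp1 to Rpl22l1, where NSG replicates 3 and 4 resemble WT.

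**Figure D4:**
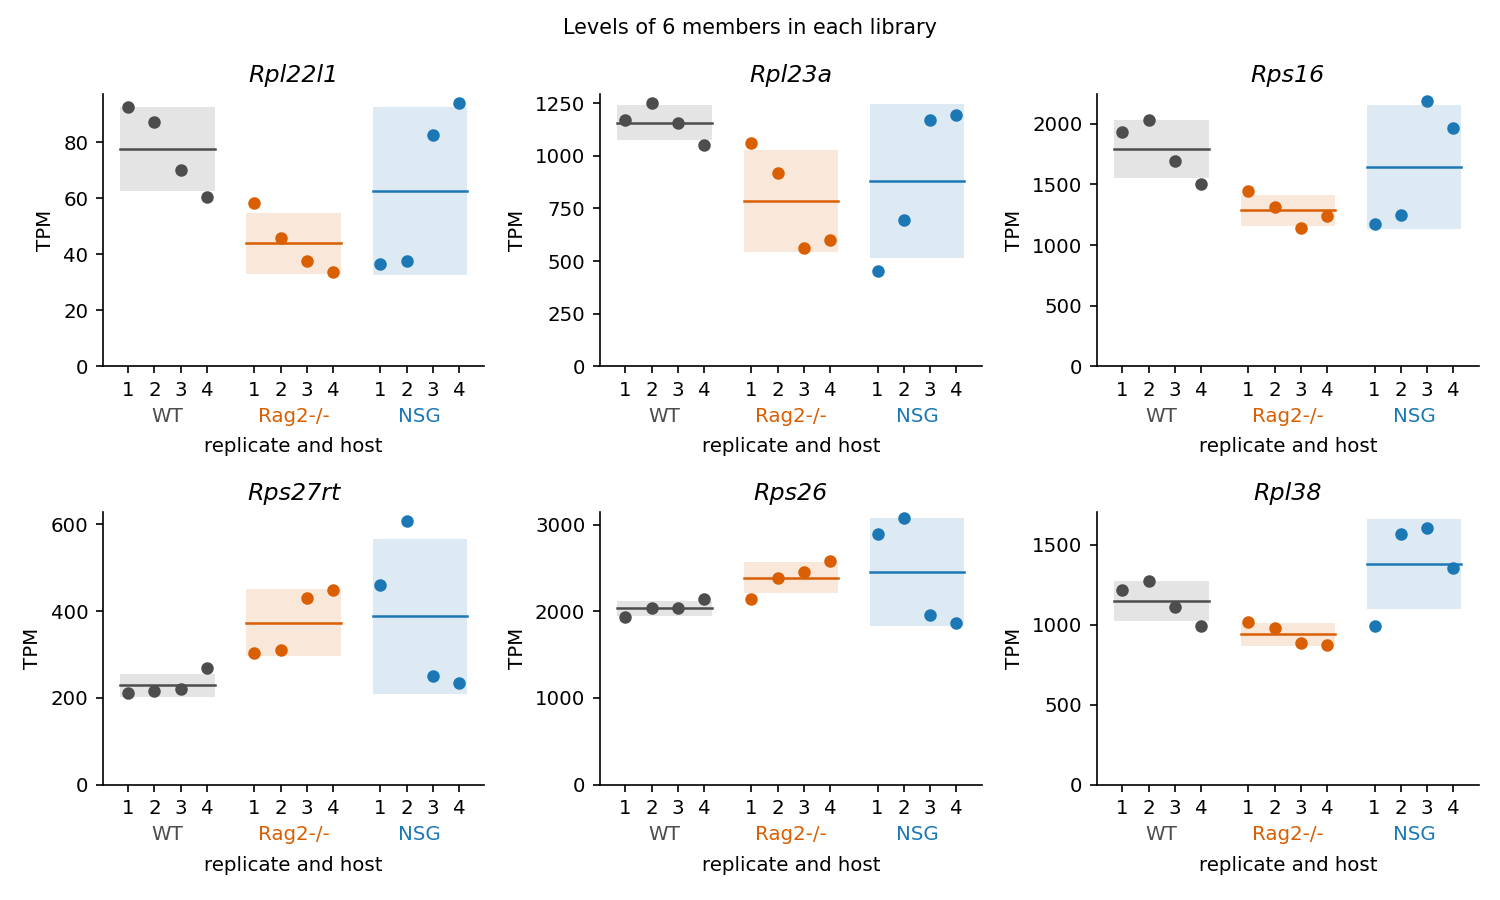
TPM of 6 members in each library by host and replicate, with host means (lines) and ± 1 SD (bands, n = 4) on axes that start at 0. Rpl22l1, Rpl23a and Rps16 are low in NSG replicates 1 and 2, where Rps27rt and Rps26 are high; Rpl38 is low in NSG replicate 1 and above every WT library in the other 3 NSG replicates.

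A ratio of 2 members within a library does not depend on a shift of the whole library. Of the 8 paralog pairs set down, 5 had both genes at the required level, which gave 15 exact two-sided permutation tests of 4 against 4 libraries, and the smallest p such a test can give is 0.0286. None passed after adjustment over the 15. Rps27l reached 32.3% to 35.0% of the summed TPM of Rps27 and Rps27l in WT, 32.3% to 35.4% in Rag2-/- and 35.3% to 39.5% in NSG. The mean log2 ratio was 0.22 higher in NSG than in WT, without overlap (exact p = 0.0286, adjusted p = 0.429). Rps27rt has the same coding sequence as Rps27 and is left out of this pair. The shares and the ratio therefore depend on how reads were divided between Rps27 and Rps27rt, and the difference is uncertain for that reason. Rpl22l1 took 14.0% to 19.4% of the summed TPM of the pair Rpl22l1 and Rpl22 in WT, 8.01% to 14.1% in Rag2-/-, and 8.14%, 7.89%, 17.2% and 18.6% in NSG. Its mean log2 ratio to Rpl22 was -3.05 ± 0.40 (SD, n = 4) in Rag2-/- and -2.33 ± 0.24 in WT, a difference of -0.71 (exact p = 0.0571, adjusted p = 0.429). Rpl7l1, a paralog with a role in ribosome assembly, took 9.40% to 12.1% of its pair with Rpl7 over all libraries, Rpl36al at most 1.95% of its pair with Rpl36a, and Rpl3l at most 0.53% of its pair with Rpl3.

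**Figure D5:**
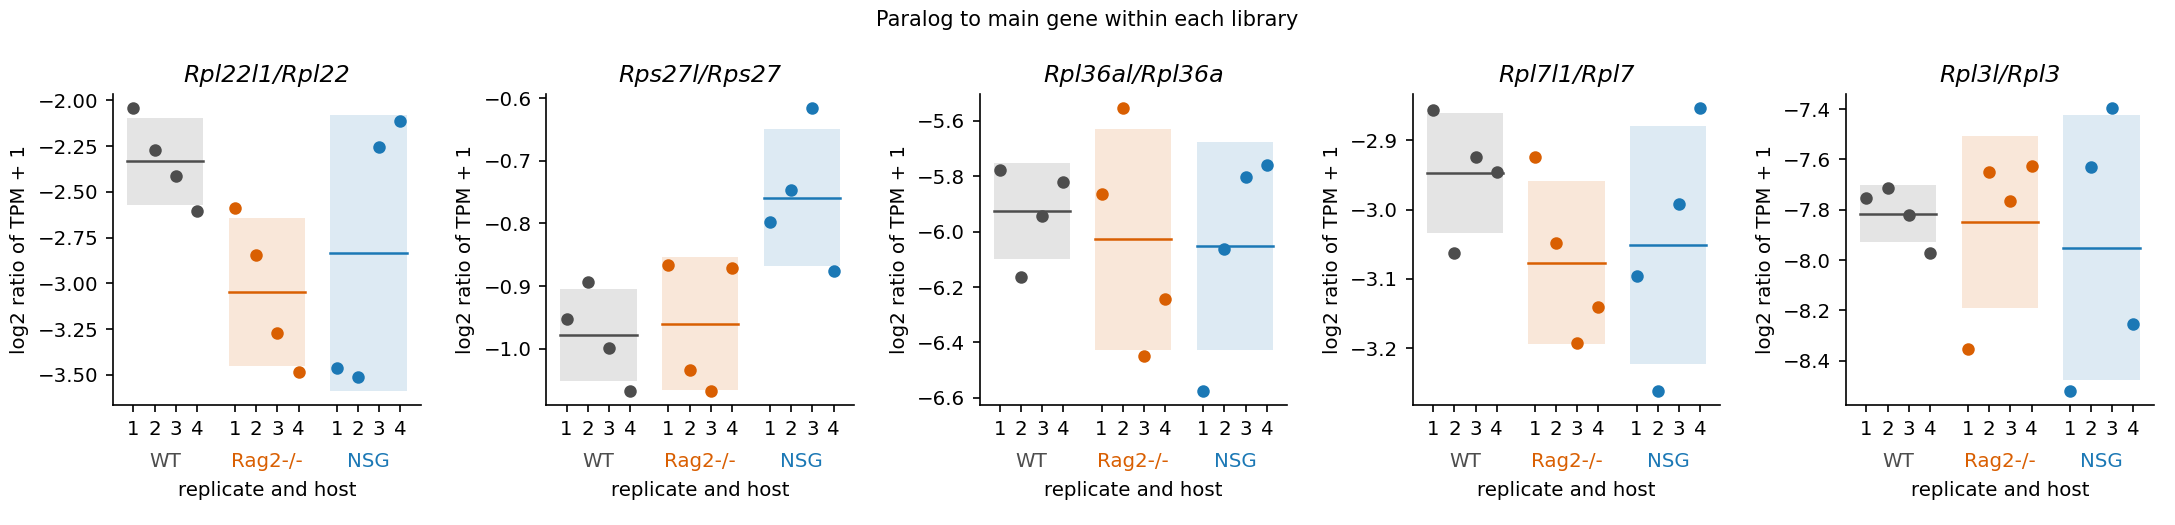
Log2 ratio of TPM + 1 of each paralog to its main gene within each library, by host and replicate, with host means (lines) and ± 1 SD (bands, n = 4). The Rps27l ratio of the 4 NSG libraries lies above that of the 4 WT libraries, and the Rpl22l1 ratio of NSG splits into replicates 1 and 2 near -3.5 and replicates 3 and 4 near the WT values. Rps27rt, whose coding sequence is the same as that of Rps27, is not part of the Rps27l ratio.

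The 11 genes of Diamond-Blackfan anaemia and the 5q- syndrome were all among the members, and none was called in any comparison (limma). Their median log2 fold change was -0.03 for Rag2-/- against WT, -0.12 for Rag2-/- against NSG and 0.05 for NSG against WT. Rps19, the gene most often mutated in the anaemia, had 444, 458, 404 and 385 TPM in WT, 350, 337, 313 and 297 TPM in Rag2-/-, and 284, 339, 490 and 447 TPM in NSG. Rag2-/- lay below WT in every library (log2 fold change -0.38, SE 0.14, limma adjusted p = 0.153), and 2 NSG libraries were inside the Rag2-/- range or below it. Rpl11 and Rpl5 bind Mdm2 together with the 5S rRNA and so connect the ribosome to p53. Rpl11 had a log2 fold change of -0.33 (SE 0.13, limma adjusted p = 0.184) and Rpl5 one of 0.05 (SE 0.053, adjusted p = 0.664) for Rag2-/- against WT. In the same comparison the log2 fold change was -0.36 for Rps29, -0.05 for Rps14, -0.03 for Rps24, -0.005 for Rpl35a, -0.004 for Rps10, 0.09 for Rps7 and 0.23 for Rps26. Rps29 had 1285, 1291, 1263 and 1284 TPM in Rag2-/- and 1419 to 1888 TPM in WT.

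Other genes of translation were looked at beside the family. Rack1 and Fau, ribosomal proteins that the name rule leaves out, had log2 fold changes of -0.06 and -0.02 for Rag2-/- against WT, and neither was called. Of 77 tested mitochondrial ribosomal proteins, none was called, and their median was -0.05 for Rag2-/- against WT, -0.08 for Rag2-/- against NSG and 0.05 for NSG against WT. Of 45 genes of ribosome biogenesis, none was called, with medians of -0.12, -0.08 and -0.03. The 32 translation factors and other mRNAs with a TOP motif had medians of -0.05, -0.02 and -0.02. Of these, none was called in the comparisons with NSG. Only 1 was called for Rag2-/- against WT, where it was higher in Rag2-/- and 1.47% of all tested genes were called. It was Vim, the intermediate filament vimentin (log2 fold change 0.70, SE 0.13, limma adjusted p = 0.017). Of 14 tested regulators, none was called, and Myc, a driver of ribosome production, had a log2 fold change of 0.06 and Larp1, a repressor that binds the TOP motif, one of -0.03 for Rag2-/- against WT.

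Among 9352 other genes averaging 10 TPM or more, the 5 whose profile over the 12 libraries was most like the mean of the members were Fbl (Pearson r = 0.939), which methylates rRNA, Phf5a (0.939), a splicing factor, Ndufb6 (0.935), of respiratory complex I, Gar1 (0.935), of the box H/ACA particles that modify rRNA, and Uqcr11 (0.932), of complex III. Each was highest in NSG replicate 3 and lowest in Rag2-/- replicate 3, as the member sum was. These genes were picked for their likeness over the same libraries, so the shared extremes are not a separate observation.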

How the data were processed

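RNA-seq reads of 12 libraries had been aligned to mm10 with HISAT2 on Galaxy, and the deposited table holds TPM that the authors computed from read counts; the counting tool and annotation are not given in the sources used here. GENCODE M21 exon lengths turned 98.6% to 98.9% of the values under 20 reads into whole reads (tolerance 0.02), which gave the depths, and mates of a pair appear to have been counted singly, so intervals from counting were not used. Gene identifiers were paired with M21 symbols (55141 of 55401). Genes averaging 1 TPM or more were fitted as log2(TPM + 1) with limma 3.58.1 (R 4.3.3; 1 fit of 3 hosts, eBayes with trend), with calls at a Benjamini-Hochberg adjusted p below 0.05 and a log2 fold change beyond 0.5; fold changes of low genes are understated on this scale. Replicates are the labels' biological replicates. The script was tested on simulated data. Ratios used exact permutation tests. Start sites came from RefSeq, coding sequences from M21. A few genes are not reported here by name or in the heatmap. The members and lists were chosen with earlier results of these data known. The text names the 6 highest and 6 lowest members, the 3 highest and 3 lowest fold changes per comparison, called members, the 4 most and 4 least variable, paralog pairs, members that are not structural, and the anaemia genes; Rps3 and Rps21 were named after their values were seen, as were the members that were lowest or highest in the libraries that stood apart and those whose start sequences are shown. Same-numbered libraries correlated between -0.09 and 0.03, so the numbers do not pair the samples. Alternatives were another pseudocount, filters, normalizations, no trend, fewer libraries, a replicate block, no fold limit, limma-voom on the recovered reads and each library left out.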

Additional observations from a re-analysis of the deposited data

Results flagged for a closer look

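In each host, the highest or lowest of the 4 libraries was checked for a gap to the others that, as a share of the host's range, is above Dixon's 95% critical value for 4 samples. Of 144 sets of 4 values checked, 8 met it, where chance gives about 1 in 20. Rplp0 was at 5077 TPM in WT replicate 1, against 5211 to 5228 TPM in the other WT libraries, and at 5031 TPM in Rag2-/- replicate 3, against 5234 to 5270 TPM. Rps24 was at 470 TPM in Rag2-/- replicate 3, against 512 to 519 TPM, and at 644 TPM in NSG replicate 2, against 504 to 526 TPM. Rps27rt was at 269 TPM in WT replicate 4, against 210 to 220 TPM. Among the low members, Rps3a2 was at 16.0 TPM in WT replicate 4, against 11.2 to 11.8 TPM, Rpl24 at 9.06 TPM in Rag2-/- replicate 1, against 6.86 to 7.16 TPM, and Rpl36al at 7.98 TPM in NSG replicate 1, against 12.3 to 13.1 TPM.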

How the results depend on the processing

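The number of members called stayed at 0 in all comparisons under every alternative except 2. With the 8 libraries of Rag2-/- and WT alone it was 2 (Rps27rt higher, Rpl22l1 lower), and with each library left out in turn it was 0 to 0 for Rag2-/- against WT and for NSG against WT and 0 to 1 for Rag2-/- against NSG (Rpl38, without NSG replicate 1, where its log2 fold change ranged from -0.68 to -0.45). The number as a block gave 0 calls in each comparison, and 0 libraries correlated best with their own number. The block could not change the medians, since every host has the same replicate numbers. Medians of the members kept their direction under every alternative. They were -0.06 with the libraries that stood apart as a factor and -0.11 with median-ratio scaling for Rag2-/- against WT (main value -0.09), -0.09 with quantile normalization and -0.14 with median-ratio scaling for Rag2-/- against NSG (-0.12), and 0.004 to 0.05 over left-out libraries for NSG against WT (0.03). Fits on recovered reads and without the libraries that stood apart were added after seeing the data. The summed difference between NSG and WT ranged from 9 to 5565 TPM over left-out libraries. Directions turned without the 4 libraries that stood apart for Rps27a (-0.24) and Rps26 (0.24) in Rag2-/- against NSG, and for Rpl22l1 (0.20), Rpl23a (0.036), Rps16 (0.22), Rpl24 (0.077) and Rps26 (-0.088) in NSG against WT, among others. They also turned when 1 library was left out: Rps27a (-0.13 to 0.39) and Rps3a3 (-0.053 to 0.31) for Rag2-/- against NSG, and these paralog ratios. For Rag2-/- against WT they ranged from -0.013 to 0.055 (Rps27l/Rps27), -0.26 to 0.038 (Rpl36al/Rpl36a) and -0.11 to 0.13 (Rpl3l/Rpl3). For Rag2-/- against NSG they ranged from -0.44 to 0.030 (Rpl22l1/Rpl22), -0.15 to 0.16 (Rpl36al/Rpl36a), -0.096 to 0.040 (Rpl7l1/Rpl7) and -0.089 to 0.29 (Rpl3l/Rpl3). For NSG against WT they ranged from -0.22 to 0.051 (Rpl36al/Rpl36a) and -0.32 to 0.055 (Rpl3l/Rpl3). The cause was not tested. With 4 libraries a host, and shared sequence among members, small differences in single genes could not be resolved.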
